A study of Mus musculus with 14 samples.

Results

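Ribosomal protein genes of the cytosolic ribosome were examined in adipocytes of lean and obese mice. The set was taken by symbol after mouse symbols had been matched to the Ensembl identifiers of the expression values. It held every gene named Rpl or Rps followed by a number, with or without a closing a, x, y or l, together with Rplp0, Rplp1, Rplp2 and Rpsa. Pseudogenes with the ending -ps and the Rps6k kinases were left out. The rule gave 81 of 38553 genes. Of these, 45 encode proteins of the large (60S) subunit, 30 encode proteins of the small (40S) subunit, and 6 are paralogs (Rpl3l, Rpl6l, Rpl10l, Rpl39l, Rps4l and Rps27l). The 75 subunit genes are called the subunit genes here. RefSeq lists Rpl6l as a pseudogene and Rps4l as a transcribed pseudogene. Ribosomal proteins that carry other symbols (such as Rps3a1 and Fau) fell outside the rule.

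Poly(A) RNA had been sequenced from male C57BL/6 mice without any engineered allele named in the labels. Mice received regular chow (here the normal diet) or a high-fat diet for 16 weeks from weaning at 3 weeks of age. The groups were epididymal and inguinal (both white) adipocytes on each diet, with 3 libraries per group numbered 0 to 2, and interscapular brown adipocytes with 1 library per diet, which makes 14 libraries in all. Each library pooled the tissue of 3 to 5 mice, and the cells were the floating layer left after collagenase digestion, a layer that can carry other cells. White tissue was digested for 20 min and brown tissue for 40 min, so that brown and white levels differ in handling as well as in tissue.

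A ribosome is built from ribosomal RNAs and a set of proteins that are nearly all needed in equal number, and the genes for these proteins are among the most highly transcribed in any cell. Their mRNAs begin with a C followed by a run of pyrimidines, the 5′ terminal oligopyrimidine (TOP) motif, through which the nutrient-sensing mTOR kinase and the RNA-binding protein LARP1 set how much of each mRNA is translated and kept. Lymphocytes are known for a high share of ribosomal protein mRNA. Values below are FPKM, that is, sequenced fragments per kilobase of a gene's transcript, adjusted for the total mapped in each library, and differences are on the log2(FPKM + 0.5) scale.

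The start sites of 10 genes that the results turn on are shown, because a pyrimidine run is the sequence feature that the family is known for. Of these, 8 have a run beginning with C of at least 7 bases. The other 2 (Rpl5 and Rpl11) have no run beginning with C of at least 4. Each line gives 15 bases before and 15 bases from the start annotated by RefSeq on GRCm38.p6, on the strand of the gene, and capitals mark the longest run of C and T that begins with C.
Rps6: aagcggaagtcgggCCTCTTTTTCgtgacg
Rplp2: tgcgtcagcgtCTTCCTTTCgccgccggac
Rpl35: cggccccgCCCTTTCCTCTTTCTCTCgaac
Rps15a: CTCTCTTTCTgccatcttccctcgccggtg
Rps27: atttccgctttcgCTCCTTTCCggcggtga
Rps27l: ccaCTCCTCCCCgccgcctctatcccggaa
Rpl39: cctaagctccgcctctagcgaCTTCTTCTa
Rpl39l: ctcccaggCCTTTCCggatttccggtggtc
Rpl5: tctcacgtcgcttgcgtgctggtggtgcta
Rpl11: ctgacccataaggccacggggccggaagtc
These lie at chr4:86857353-86857382 (minus strand) for Rps6, chr7:141447636-141447665 (plus) for Rplp2, chr2:39005117-39005146 (minus) for Rpl35, chr7:118116133-118116162 (minus) for Rps15a, chr3:90213634-90213663 (minus) for Rps27, chr9:66946071-66946100 (plus) for Rps27l, chrX:37085208-37085237 (minus) for Rpl39, chr16:10170213-10170242 (plus) for Rpl39l, chr5:107900513-107900542 (plus) for Rpl5 and chr4:136053379-136053408 (minus) for Rpl11. The runs were 10 bases long in Rps6 and Rps15a, 9 in Rplp2, Rps27 and Rps27l, 18 in Rpl35, 8 in Rpl39 and 7 in Rpl39l. Rps27l has a second annotated start whose longest run was 4 bases. Rpl10, Rps3, Rpsa and Rpl41 also had no run beginning with C of at least 4 in these 30 bases. Because annotated starts can be off by some bases, the run need not begin at the marked start.

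A start region was matched for 59 of the 81 genes, 55 of them subunit genes. A C followed by at least 6 pyrimidines lay within 25 bases of an annotated start, on the strand of the gene, in 33 of the 55 subunit genes (60%), against 27.3% of 10641 tested genes with a matched start. The letters CTTTC were found in the same window in 18 of the 55 (32.7%), against 7.04% of tested genes; such a CTTTC can overlap the longer run. CTTCCG, the core bound by ETS factors, was found on either strand of the window from 250 bases before to 50 bases after the start in 38 of the 55 (69.1%), against 33.7% of tested genes. TATAAA in the 50 bases before the start was found in 0 of the 55 and in 1.87% of tested genes. The genes with and without these letters had nearly the same diet difference. In inguinal adipocytes the median log2 difference, high-fat minus normal diet, was -1.45 over 33 genes with the pyrimidine run and -1.48 over 22 without it, and -1.45 over 38 with and -1.51 over 17 without CTTCCG.

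The libraries differed in ways that the groups do not explain. In 8 libraries, called set A here, none of the 22 tRNA genes of the mitochondrial genome had a value above 0: the 6 epididymal libraries, inguinal normal-diet library 0 and the brown high-fat library. In the other 6, called set B, between 10 and 19 of these genes lay above 0. The epididymal diet comparison therefore lies within set A, the inguinal one within set B except for normal-diet library 0, and in the depot comparison on the high-fat diet the set and the depot cannot be told apart. Markers of lymphocytes, 20 B and T cell genes, stood high in inguinal normal-diet libraries 0 and 2. Their mean log2 level, centred on the white libraries, was 3.76 and 4.43 there and 0.96 in library 1, between -1.09 and -0.50 in the inguinal high-fat libraries and between -1.40 and -0.56 in the epididymal ones. Adipocyte markers summed to 18700 to 45667 FPKM in the white libraries, with none of 12 listed at 0. Their mean log2 level, centred in the same way, was lowest in inguinal normal-diet libraries 0 and 2 (-0.78 and -0.84). In the other white libraries it ran from -0.27 to 0.43. In such bulk samples fewer cells of a type and less RNA per cell cannot be told apart.

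Ribosomal protein mRNA took a near-constant share of epididymal libraries and a widely varying share of inguinal ones. The share counts the 79 of the 81 genes listed as protein-coding, that is, all but Rpl6l and Rps4l. As a percentage of the summed FPKM of nuclear protein-coding genes, these made up 5.60, 5.96 and 6.44 in epididymal normal-diet libraries 0, 1 and 2. In the high-fat ones they made up 5.29, 6.09 and 5.02, so the diets overlapped. They made up 10.8, 3.68 and 10.1 in inguinal normal-diet libraries 0, 1 and 2 and 2.49, 2.82 and 2.55 in the high-fat ones. All 3 inguinal normal-diet libraries thus lay above all 3 high-fat ones, and libraries 0 and 2, which also had the highest lymphocyte marker level, lay highest of the 14. The brown high-fat library stood at 4.99 and the brown normal-diet library at 3.05. With mitochondrial mRNA kept in the total the epididymal order of diets turned, to 2.31, 3.56 and 2.15 on the normal and 3.33, 4.45 and 3.62 on the high-fat diet, again with overlap. Mitochondrial mRNA took 40.3% to 66.7% of the normal-diet and 26.9% to 37.0% of the high-fat total.

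**Figure D1:**
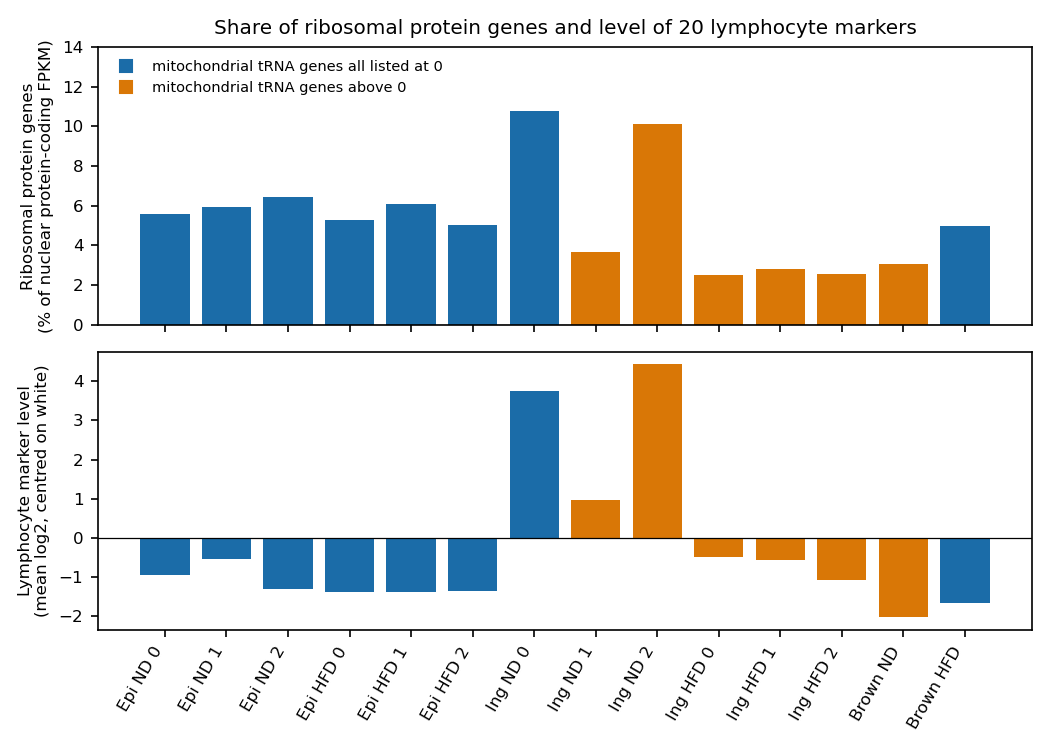
Share of the ribosomal protein genes listed as protein-coding (79 of 81) in the summed FPKM of nuclear protein-coding genes (upper bars, percent) and mean centred log2 level of 20 lymphocyte markers (lower bars) in each of the 14 libraries, coloured by whether the mitochondrial tRNA genes were all listed at 0. Inguinal normal-diet libraries 0 and 2 are highest in both panels (10.8% and 10.1%; 3.76 and 4.43), and the 3 inguinal high-fat libraries are lowest in the upper one (2.49% to 2.82%).

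The levels of single genes are summarised by their median in each library. The median over the 75 subunit genes was 185, 287 and 307 FPKM in epididymal normal-diet libraries and 249, 289 and 256 in the high-fat ones. It was 383, 162 and 378 FPKM in inguinal normal-diet libraries 0, 1 and 2, and 89.5, 113 and 99.4 in the high-fat ones. Within a library the genes spread widely, although FPKM is divided by length. Rplp1, which with Rplp2 forms the pair of acidic stalk proteins that recruit elongation factors, was the highest subunit gene in every set A library (726 to 1472 FPKM). In set B the highest was Rps21, a small 40S protein, in all but inguinal normal-diet library 2, where Rpl13a reached 1731 FPKM. Rpl21 was the lowest subunit gene in all but that same library, where Rpl29 was lowest at 17.6 FPKM.

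**Figure D2:**
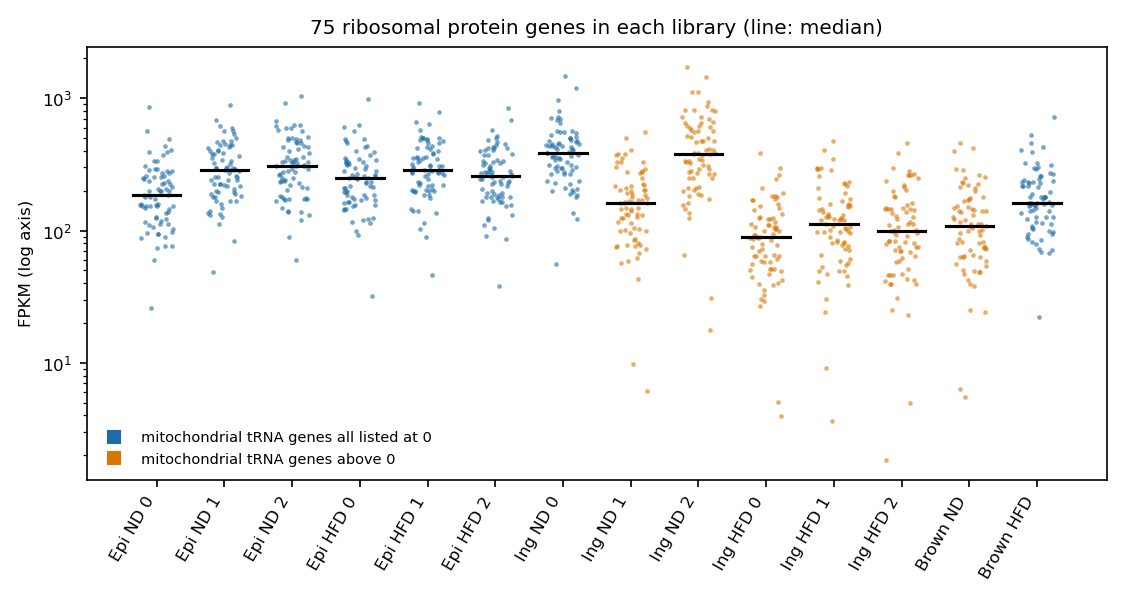
FPKM (log axis) of the 75 subunit genes in each library; each point is a gene, the line is the median, and colour marks the library set. Medians run from 89.5 FPKM in inguinal high-fat library 0 to 383 FPKM in inguinal normal-diet library 0, and 1 or 2 genes (Rpl21 and Rpl29) trail far below the rest in the set B libraries.

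The first comparison asked whether diet changed ribosomal protein mRNA in epididymal adipocytes. No change was detected. In a limma fit over 14959 genes, 0 of the 79 ribosomal protein genes tested passed a Benjamini-Hochberg adjusted p of 0.05 in the epididymal diet contrast, while 19.5% of all genes tested did, and 0 of the 79 had an unadjusted p under 0.05. Rpl10l, listed at 0 in every library, and Rpl3l, at most 2.21 FPKM, had not passed the filter on low values. The median log2 difference, high-fat minus normal diet, was 0.08 (1.06-fold) over the 79 genes and 0.07 over all genes. Rps6, the 40S protein that S6 kinase phosphorylates in response to insulin and nutrients, stood at 169, 186 and 180 FPKM in high-fat and 115, 207 and 235 in normal-diet libraries, and the groups overlapped (log2 difference 0.0047, SE 0.38).

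Individual epididymal differences were small. They ran from -0.61 for Rps27, a zinc-finger protein of the 40S subunit, to 0.54 for its paralog Rps27l. Rps27l stood at 135, 159 and 167 FPKM in high-fat and 90, 125 and 103 in normal-diet libraries, without overlap, with an adjusted p of 0.19 in limma. Rps27 stood at 176, 274 and 207 FPKM in high-fat and 229, 336 and 458 in normal-diet libraries, with overlap and an adjusted p of 0.33. With the library number as a block, Rps27l alone passed (log2 difference 0.54, SE 0.17, adjusted p 0.0453), when 22.8% of all genes passed. The diets did not overlap for 5 of the 79 genes, higher on the high-fat diet for Rpl6, Rps16, Rps26 and Rps27l and lower for Rps21, against 42.4% of all genes tested. Over the same comparison 9 of 15 macrophage markers rose and all 11 endothelial and all 5 tested erythroid markers fell, while 1 of 20 lymphocyte markers passed.

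In inguinal adipocytes nearly the whole family was lower on the high-fat diet. Of the 79 genes tested, 73 fell, against 10.2% of all genes tested, 1 rose (Rpl39l), against 9.3%, and 5 passed in neither direction. The median log2 difference was -1.45, a 2.74-fold lower level on the high-fat diet, beside -0.01 over all genes. All 30 genes of the 40S subunit fell, with a median of -1.57, and 43 of 45 genes of the 60S subunit fell, with a median of -1.48. The 2 others were Rpl29 (-2.14, adjusted p 0.051) and Rpl41 (-0.84, adjusted p 0.082), which encodes the smallest ribosomal protein. For 75 of the 79 genes every high-fat library lay below every normal-diet one, against 17.3% of all genes.

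The 5S particle, in which Rpl5 and Rpl11 carry 5S rRNA into the 60S subunit and can bind the p53 inhibitor Mdm2, held the gene with the lowest adjusted p. Rpl5 stood at 26.8, 30.2 and 25.1 FPKM on the high-fat diet and at 238, 75 and 136 in normal-diet libraries 0, 1 and 2. The groups lay far apart, with library 1 nearest to the high-fat ones (log2 difference -2.28, SE 0.33, adjusted p 0.0012). Rpl11 stood at 85.5, 112 and 90.5 FPKM in high-fat and 267, 141 and 309 in normal-diet libraries, again without overlap (-1.24, SE 0.34, adjusted p 0.026).

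Among 40S proteins, Rps6 stood at 47.2, 65.4 and 51.4 FPKM in high-fat and 295, 101 and 281 in normal-diet libraries. Libraries 0 and 2 of the normal diet lay well above library 1, and all 3 lay above the high-fat ones (-1.90, SE 0.38, adjusted p 0.0057). Rps19, the ribosomal protein most often mutated in human Diamond-Blackfan anaemia, fell by 1.38 on the log2 scale. Rps27a, made as a fusion with ubiquitin, fell by 1.55, and Rpsa, also known as the laminin receptor precursor, fell by 1.75. The 40S genes with the largest differences were Rps24 (-2.16), Rps15a (-2.05), Rps27 (-2.04) and Rps29 (-1.99), and the smallest was that of Rps9 (-0.98, adjusted p 0.032). Rps24 stood at 86.6, 105 and 82.7 FPKM in high-fat and 802, 175 and 478 in normal-diet libraries. Rps9 stood at 299, 407 and 384 FPKM in high-fat and 648, 499 and 1109 in normal-diet libraries. In both genes normal-diet library 1 was again the nearest to the high-fat group.

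Among 60S proteins, Rplp0, Rplp1 and Rplp2 of the stalk fell by 1.5, 1.67 and 1.29. Rpl3, which lies next to the peptidyl transferase centre, fell by 1.92, Rpl10, one of the last proteins to join the subunit, by 1.27, Rpl13 by 1.94, Rpl35, at the exit of the nascent chain, by 1.67, and Rpl39, in the wall of the exit tunnel, by 1.48. The largest difference was that of Rpl21, at 3.95, 3.61 and 1.84 FPKM in high-fat and 55.4, 6.09 and 30.7 in normal-diet libraries (-2.69, SE 0.62, adjusted p 0.011). Outside the rule, Fau, whose product is cleaved to the 40S protein Rps30, also fell (-1.76, adjusted p 0.0096), from 430, 117 and 393 FPKM to 81.4, 83.7 and 74.0.

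**Figure D3:**
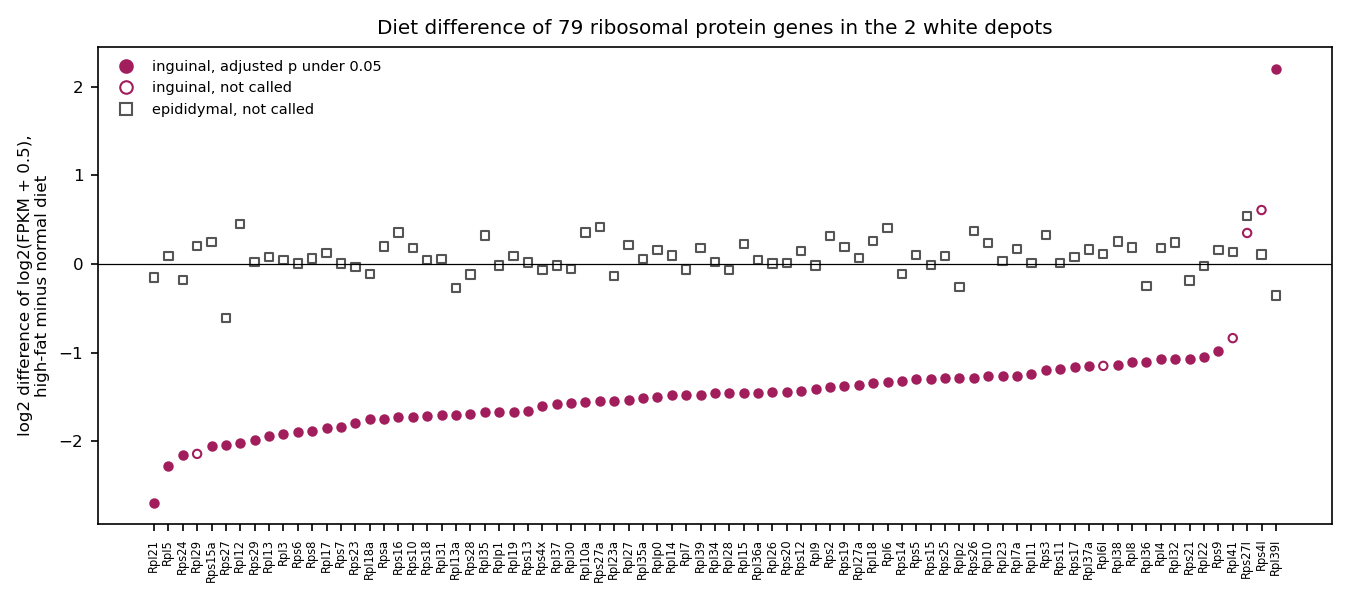
Diet difference, high-fat minus normal, on the log2(FPKM + 0.5) scale for the 79 tested genes, ordered by the inguinal value; circles are inguinal (filled where limma's adjusted p was under 0.05), squares are epididymal. Inguinal values run from -2.69 (Rpl21) to 2.20 (Rpl39l) and epididymal ones from -0.61 (Rps27) to 0.54 (Rps27l), with none of the latter called.

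Markers of other cells also differed between the diets in inguinal adipocytes. Of the 20 lymphocyte markers, 19 fell on the high-fat diet (median log2 difference -3.87). They summed to 1293, 233 and 1683 FPKM in normal-diet libraries 0, 1 and 2 and to 432, 615 and 522 in the high-fat ones, so that the sum and the mean log2 level order these libraries differently. Over the same comparison 4 of 5 erythroid markers fell (median -3.67), and 5 of 12 fibroblast and progenitor markers fell and 2 rose. Further, 4 of 15 macrophage markers rose and 2 of 11 endothelial markers fell. Of 12 adipocyte markers 3 rose and 1 fell (median 0.58). The part of cell content in the result was not tested. None of the 20 lymphocyte markers was listed at 0 in a normal-diet library, and 0, 1 and 3 were in the high-fat ones. With the mean marker level as a covariate, 0 of the 79 ribosomal protein genes passed in limma, 1 had an unadjusted p under 0.05, and the median difference was -0.15; in that fit 0.983% of all genes passed. The marker level itself separates the diets in this depot, so that the covariate and the diet cannot be told apart by the fit alone. With libraries 0 and 2 of the normal diet left out together, the normal-diet arm is 1 library, which the fit assumes to vary like the libraries of the other groups, and the median difference over the 79 genes was -0.63. In that fit 1 ribosomal protein gene fell (Rpl5, -1.44, adjusted p 0.00998), 1 rose (Rpl39l), 32 had an unadjusted p under 0.05, and 6.68% of all genes passed. That library, normal-diet library 1, lay above all 3 high-fat libraries in 74 of the 75 subunit genes. The share of all genes in which it did so was not computed, and 1 library against 3 is a looser rule than 3 against 3. It also lay above them in the marker level (0.96 against -1.09 to -0.50).

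The number of inguinal calls also depended on single libraries. Without normal-diet library 0, which leaves the comparison within set B, 51 genes fell and 1 rose, with a median of -1.30, and 13.5% of all genes passed. Without normal-diet library 2, 47 fell and 1 rose, when 13.4% of all genes passed, and without high-fat library 0, 44 fell and 1 rose, when 12.5% passed. Without normal-diet library 1, 75 fell and 2 rose, with a median of -1.89, and 31.6% of all genes passed. With only the 6 inguinal libraries in the fit, 2 fell and 1 rose, with 77 at an unadjusted p under 0.05 and 4.77% of all genes passing. Of the 74 calls, 43 held in each of the 6 fits with a library left out, a tally not made for all genes.

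Few genes departed from the family as a whole. When each library was centred on the median of the ribosomal protein genes, only 5 of the 79 passed in the inguinal diet contrast, beside 75% of all genes, since centring moves every other gene. Rpl21 (-1.20) and Rpl5 (-0.79) were lower and Rpl39l (3.69), Rps4l (2.09) and Rps27l (1.83) higher on the high-fat diet than the family as a whole. All 3 of the latter are paralogs.

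The diet effects of the depots differed for 22 of the 79 genes in the test of the difference itself, the interaction of limma, against 7.22% of all genes tested. For 21 genes the difference, epididymal minus inguinal diet effect, was above 0, against 4.8% of all genes, and for 1 below 0, against 2.42%, and the median over the 79 was 1.56. Rpl5 (2.37, SE 0.47, adjusted p 0.013), Rps15a (2.30), Rpl13 (2.01) and Rpl35 (2.00) had the largest values among the called genes, and Rpl39l (-2.56, SE 0.53, adjusted p 0.015) was the exception. Rps6 (1.90, adjusted p 0.053) did not pass. This count was unstable: it fell to between 2 and 5 with each of 11 of the 12 libraries left out, when 2.89% to 5.97% of all genes passed, so that the family's share was then near that of all genes, and it rose to 71 without inguinal normal-diet library 1, when 17.6% of all genes passed. Only Rpl5 and Rpl39l passed in all 12 such fits. With the library number as a block 12 genes passed upward and 1 downward, when 7.7% of all genes passed. With the lymphocyte level as a covariate 0 passed (median 0.35; 2 at an unadjusted p under 0.05; 1.35% of all genes passed), with the library set as a term 4 (5.66% of all genes), and with no filter on low values 4 (3.08%). In the same contrast 6 of 20 lymphocyte markers and 5 of 15 macrophage markers were above 0 and all 11 endothelial markers below 0 by the same call, and their part in the result was not tested.

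On the normal diet no depot difference was detected. In limma 0 of the 79 genes passed between epididymal and inguinal adipocytes, against 6.51% of all genes tested, 10 had an unadjusted p under 0.05, and the median difference, epididymal minus inguinal, was -0.07. In the share of the family the inguinal libraries bracketed the epididymal ones. Rps6, at 115, 207 and 235 FPKM in epididymal libraries, lay at 295 and 281 in inguinal libraries 0 and 2 and at 101 in library 1. Without library 1, 23 genes were lower in epididymal adipocytes, when 20.7% of all genes passed, and with libraries 0 and 2 left out 11 were higher, with a median of 0.77 and 3.76% of all genes passing. In the latter fit the inguinal arm is 1 library, assumed to vary like the other groups. Lymphocyte markers differed over the same comparison, 19 of 20 being lower in epididymal adipocytes.

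On the high-fat diet the family was higher in epididymal than in inguinal adipocytes. Of the 79 genes, 57 were higher, against 7.08% of all genes tested, and 1 was lower (Rpl39l), against 3.53%, making 58 calls where 10.6% of all genes passed, with a median log2 difference of 1.5 (2.82-fold) beside 0.04 over all genes. For 76 genes the groups did not overlap with epididymal higher, against 23.2% of all genes. Rpl10 stood at 434, 483 and 408 FPKM in epididymal and 109, 123 and 110 in inguinal libraries (1.95, SE 0.30, adjusted p 0.0023). Of the markers of other cells, 0 of 20 for lymphocytes passed in this comparison (median -0.60), while 12 of 15 for macrophages (median 2.1) and 5 of 7 for mesothelium (1.53) were higher and all 11 for endothelium lower (-2.1) in epididymal adipocytes. Their part in the result was not tested. The comparison shares its inguinal libraries with the inguinal diet comparison, so the 2 results are not independent. It also sets set A against set B: with the set as a term in the fit, which only inguinal normal-diet library 0 informs, 1 gene passed (Rpl39l, -4.45, adjusted p 0.0215), the median was 0.83, and 0.682% of all genes passed. Of the 58 calls, 27 held in each of the 6 fits with a library left out, a tally not made for all genes. The count fell to 38 without epididymal high-fat library 0 (5.34% of all genes passed), to 28 without library 1 of that group (5.23%), and to 32 and 35 without inguinal high-fat libraries 0 and 2 (7.07% and 5.46%).

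Apart from the level of the family, the levels of the genes relative to one another moved with the library set. For this, 3 pairs of libraries or groups that cross the sets were chosen. The first was inguinal normal-diet library 0 minus library 2, which share depot and diet. The others were brown high-fat minus brown normal-diet, and epididymal minus inguinal on the high-fat diet. Further pairs cross the sets too, such as epididymal normal-diet minus inguinal normal-diet library 1. In each pair the difference of a subunit gene was taken relative to the median of the 75. Across genes, which are not independent replicates, the inguinal profile correlated with the brown one at Pearson's r 0.896 (Spearman's rho 0.86) and with the depot one at 0.874 (0.838), and the brown with the depot profile at 0.913 (0.867). Without Rpl29 and Rpl21 the 3 values of r were 0.856, 0.847 and 0.881 over 73 genes. Over 11199 other genes r was 0.466, 0.487 and 0.523, and rho 0.0644, 0.0381 and 0.128. Against a pair within set A, epididymal high-fat minus normal diet, the inguinal and brown profiles of the subunit genes gave r of 0.106 and 0.157. The 3 pairs share no library, except that all values share the transcript models and lengths used for FPKM.

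**Figure D4:**
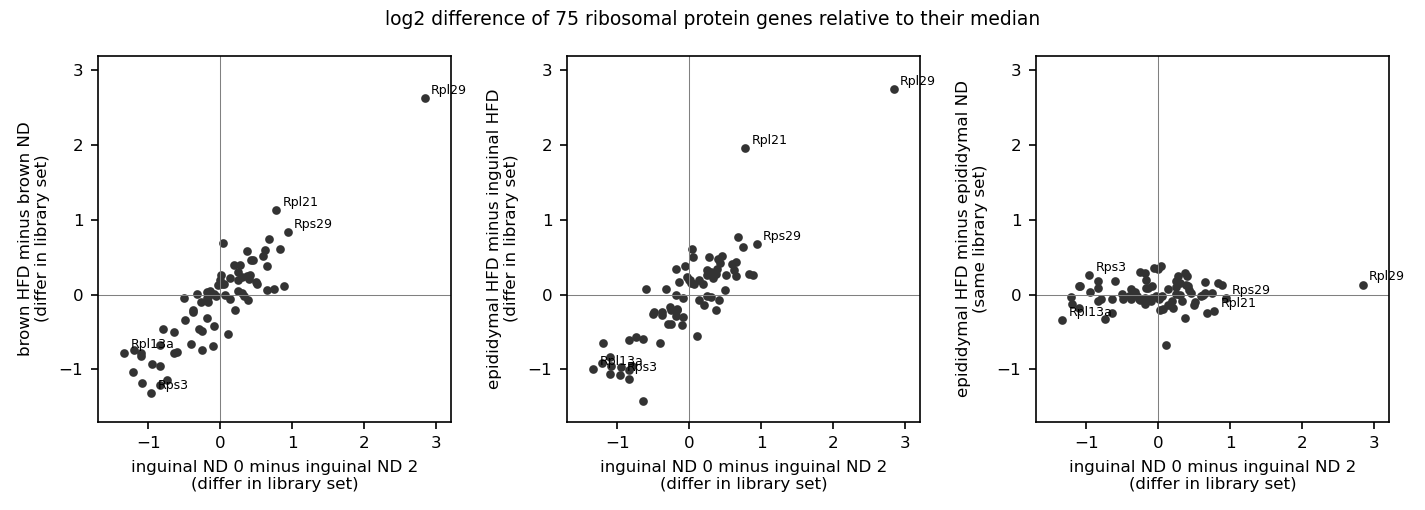
Log2 difference of each of the 75 subunit genes relative to their median, for inguinal normal-diet library 0 minus library 2 (horizontal axes) against brown high-fat minus normal-diet (left), epididymal minus inguinal on the high-fat diet (middle) and epididymal high-fat minus normal diet (right). The pairs that cross the library sets line up (r = 0.896 and 0.874), and the pair within set A does not (r = 0.106).

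Averaged over the 3 pairs, Rpl29 had the largest value, 2.74, followed by Rpl21 at 1.29, Rps29 at 0.82 and Rps24 at 0.73. Rps3, which lines the mRNA entry channel, lay at -1.12, Rpl4, of the exit tunnel, at -1.08 and Rps9 at -1.06. Rpl29 alone of the 81 genes was higher in every set A than in every set B library, against 0.755% of all genes tested. As a count, 1 of 81 is near that share. It stood at 73.0 to 140 FPKM in set A and 4.99 to 17.6 in set B, and in inguinal normal-diet libraries 0, 1 and 2 at 135, 9.79 and 17.6, although these share a label. Its depot difference on the high-fat diet (4.26, adjusted p 0.0031) is therefore between libraries that differ in set as well. Rps3, at 312, 199 and 578 FPKM in those same 3 libraries, was on the contrary highest in library 2. When libraries were centred on the family, 14 genes passed in the depot comparison on the high-fat diet, beside 73.3% of all genes, among them Rpl29 (2.86), Rpl21 (2.07) and Rps24 (0.88) upward and Rps21 (-1.31), Rps9 (-1.01) and Rps3 (-0.97) downward.

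Pseudogene values followed the set as well. The 236 features named as -ps copies of ribosomal protein genes summed to 0.80% to 1.41% of the ribosomal protein sum in set A libraries and to 4.18% to 4.98% in set B libraries, with no overlap. Reads of a ribosomal protein gene and of its processed copies can be exchanged in mapping, which makes the values of single genes less certain. Whether the level of the whole family was affected was not tested. Across the 75 subunit genes the number of -ps copies of a gene correlated with its mean profile at Pearson's r 0.314 and Spearman's rho 0.525. What made the sets differ was not tested.

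Of the 6 paralogs 4 were tested, and 0 of these passed as lower in inguinal adipocytes, where 10.2% of all genes did. Their directions differed, with Rpl6l lower and the other 3 higher on the high-fat diet by log2 difference. Rpl39l, a paralog of the tunnel protein Rpl39 known from male germ cells, stood at 12, 6.05 and 8.11 FPKM in inguinal high-fat and 2.01, 1.36 and 1.05 in inguinal normal-diet libraries. It was thus higher on the high-fat diet without overlap (2.20, SE 0.37, adjusted p 0.0025), while Rpl39 stood at 89.8, 71.2 and 75.2 in high-fat and 383, 99.8 and 274 in normal-diet libraries. In the epididymal libraries Rpl39l was at 0.58 FPKM or below and listed at 0 in 3 of 6. In brown adipocytes it was at 2.37 FPKM in the high-fat and 7.65 in the normal-diet library. Every inguinal and brown library thus lay above every epididymal one, in set A (2.01 and 2.37 FPKM) as in set B. With normal-diet libraries 0 and 2 left out, which leaves a normal-diet arm of 1 library assumed to vary like the other groups, the inguinal difference was 2.26 (adjusted p 0.030). It did not pass with the lymphocyte level as a covariate (2.42, SE 0.74, adjusted p 0.16).

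Rps27l, which p53 induces in human cells, stood at 81.2, 123 and 127 FPKM in inguinal high-fat and 57.9, 122 and 86.0 in inguinal normal-diet libraries. These overlapped (0.35, SE 0.27, adjusted p 0.39), and its partner Rps27 fell by 2.04 in the same libraries. Rps27 shares much of its sequence with the retrogene Rps27rt, listed at 235 to 1877 FPKM, and the division of reads between them is uncertain. Rps4l, at 35.3, 36.5 and 30.7 FPKM in high-fat and 21.1, 31.1 and 16.6 in normal-diet libraries, did not pass (0.61, adjusted p 0.070), and its partner Rps4x fell by 1.60. Rpl6l lay at 0.27 to 5.10 FPKM over all libraries and passed in no contrast. In inguinal adipocytes it was lower on the high-fat diet without overlap (-1.15, SE 0.50, adjusted p 0.13 in limma). Rpl3l, the striated muscle paralog of Rpl3, was highest in the brown libraries, at 2.21 FPKM in the high-fat and 0.94 in the normal-diet one, where 10 skeletal muscle markers summed to 177 and 68.6 FPKM. It was at most 0.49 FPKM in white libraries, where these markers summed to at most 35.7.

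**Figure D5:**
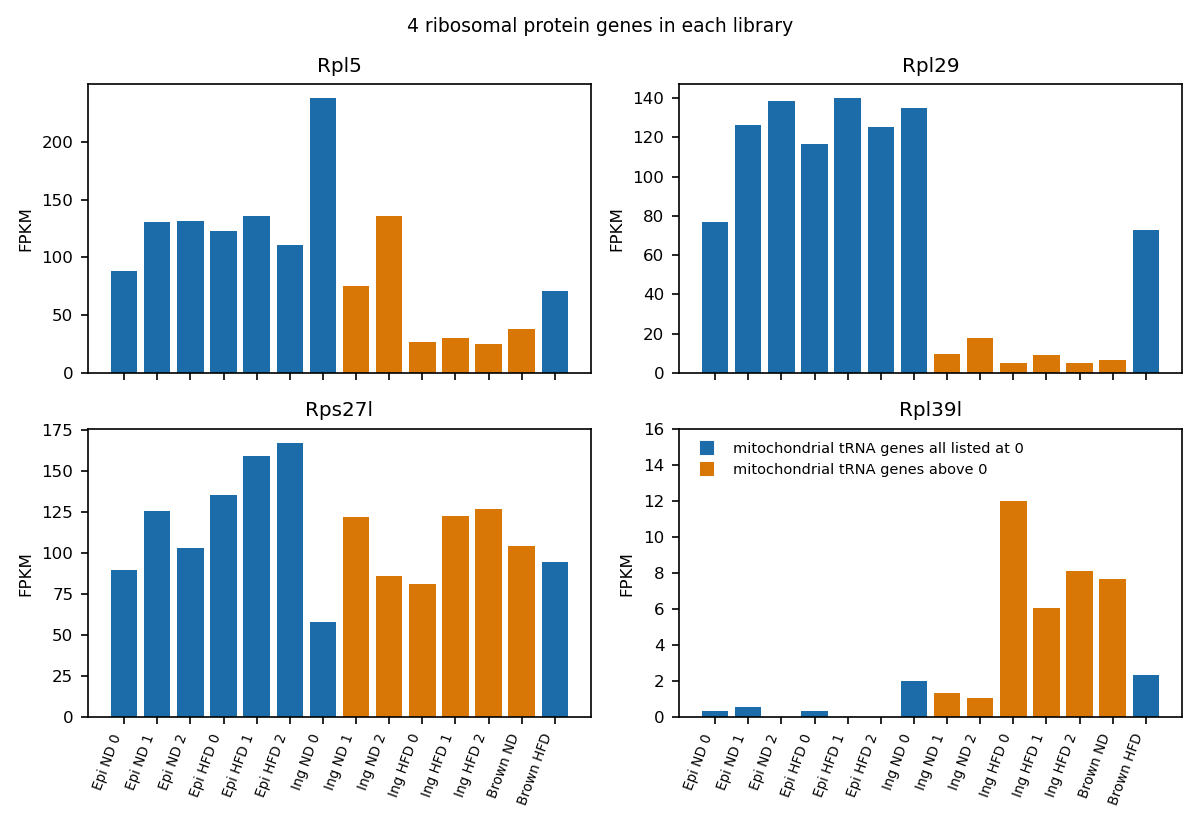
FPKM of Rpl5, Rpl29, Rps27l and Rpl39l in each library (bars start at 0; each panel has its own scale), coloured by library set. Rpl5 is lowest in the inguinal high-fat libraries (25.1 to 30.2), Rpl29 follows the set (73.0 to 140 against 4.99 to 17.6), Rps27l stays between 57.9 and 167, and Rpl39l is highest in the inguinal high-fat libraries (6.05 to 12) and the brown normal-diet one (7.65).

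The brown libraries, 1 per diet, allow no test. The median log2 difference, high-fat minus normal diet, was 0.78 (1.72-fold) over the 79 genes, beside 0.07 over all genes tested. At least 2-fold higher levels in the high-fat library were seen for 21 of the 79, against 11.3% of all genes, and 2-fold lower for 1 (Rpl39l), against 6.01%. Rps6 stood at 114 FPKM in the high-fat and 54.2 in the normal-diet library, Rplp2 at 228 and 290, and Rps3 at 125 and 180. The direction is opposite to that in inguinal adipocytes, and the high-fat library is of set A and the normal-diet one of set B, so diet and set cannot be told apart here.

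Genes that work with the ribosome, and the separate ribosome of mitochondria, were read from the same fit. Of 32 tested translation factors and other genes, many known to carry the TOP motif, 12 fell and 1 rose in inguinal adipocytes (median -0.61), beside 10.2% and 9.3% of all genes tested, among them Tpt1 (-1.57), Hnrnpa1 (-1.43) and Fau. Eif4g1, the scaffold of the cap-binding complex, was the one that rose (0.90, SE 0.25, adjusted p 0.025), and it rose in epididymal adipocytes too (0.89, adjusted p 0.024). Of 41 genes of ribosome assembly, 5 fell and 0 rose in inguinal adipocytes (median -0.26), a share near that 10.2%, among them Fbl, the methyltransferase of rRNA (-1.5), Nop56 (-1.07) and the regulator Myc (-1.11), and 4 rose and 0 fell in epididymal ones, where 12.2% of all genes rose. Of 76 genes for proteins of the mitochondrial ribosome, 7 rose and 1 fell in inguinal adipocytes (median 0.25), with Mrps6 (1.48) and Mrpl20 (1.26) the highest. Of 89 respiratory chain genes, 8 rose and 1 fell (median 0.29). The shares of both lists that rose are near the 9.3% of all genes tested. The test of a difference between these lists and the ribosomal protein genes was not made.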

How the data were processed

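The submitters' processing notes name TopHat2 2.0.9, Cuffdiff 2.1.1 and the mouse build mm10. The authors deposited 1 FPKM value per gene and library; the gene annotation, the strand setting and the scaling between libraries are not given in the sources used here. Read depth is unknown, so counting error could not be computed, and error was taken from the spread between pooled libraries. Each SE printed is from limma, which shares 1 spread per gene over the 4 white groups. In the main fit a gene thus has the same SE in the diet and depot contrasts, although its groups can vary unequally. A value listed at 0 can be a failed estimate.

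A mouse symbol was matched to 36638 of 38553 identifiers, and the 81 genes were then taken by symbol. For the 12 white libraries limma 3.58.1 in R 4.3.3, with a trended variance, took log2(FPKM + 0.5) of the deposited values, fitting 1 mean for each of 4 groups with 8 residual degrees of freedom, for genes of at least 0.5 FPKM in at least 3 libraries. A Benjamini-Hochberg adjusted p under 0.05 over all 14959 genes, two-sided, was a call; all adjusted p-values are from limma. The procedure was tested on simulated data. Brown libraries entered no test. No p was computed over the list. Counts at an unadjusted p under 0.05, and of calls that held with every library left out, were made for the family only. Shares of all genes passing are at the adjusted p.

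The genes, the gene lists and the alternatives were chosen with earlier results of these data known. Genes were named by a rule: per contrast up to 4 called each way with the largest difference; the 3 highest and 3 lowest by mean FPKM; the 3 with the largest brown difference each way relative to the family; and always Rps6, the stalk and 5S genes, Rps19, Rps27a, Rpsa and the paralogs with their partners. Genes named beyond it (Rpl4, Rpl6, Rpl13a, Rps16, Rps26, Rpl36a, the genes of the interaction and of other lists) were chosen after their values were seen. Start regions are from RefSeq on GRCm38.p6.

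The alternatives were pseudocounts of 0.1 and 1, no filter or one of 2 FPKM, TMM factors, quantile normalization, scaling to nuclear protein-coding genes, centring on the family, only the groups compared, the lymphocyte level or library set as a term, the library number as a block, and libraries left out; where 1 library remains in a group, its spread is taken from the other groups. The labels do not say what a library number marks. In the high-fat depot comparison, libraries with the same number deviated together from their group means (r of 0.184, 0.111 and 0.146), so that the numbers may pair them; in the other contrasts at least one value was under 0.1. All results printed are from the fit without the block unless the block is named.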

Additional observations from a re-analysis of the deposited data

Results flagged for a closer look

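The diet effect differed between the white depots for 22 of 79 ribosomal protein genes in the interaction test of limma. With Benjamini-Hochberg adjustment over all genes, 7.22% of all genes passed. With each library left out in turn the count ran from 2 to 71, and only Rpl5 and Rpl39l passed in all 12 fits. The values are epididymal minus inguinal diet effect on the log2(FPKM + 0.5) scale. For genes of the 40S subunit they were 1.58 (Rps12), 1.66 (Rps26), 1.71 (Rps2), 1.76 (Rps18), 1.84 (Rps7), 1.90 (Rps10), 1.95 (Rpsa), 1.96 (Rps27a) and 2.30 (Rps15a). For genes of the 60S subunit they were 1.5 (Rpl36a), 1.56 (Rpl37), 1.60 (Rpl18), 1.67 (Rpl15), 1.73 (Rpl6), 1.75 (Rpl27), 1.91 (Rpl10a), 1.96 (Rpl3), 1.97 (Rpl17), 2.00 (Rpl35), 2.01 (Rpl13) and 2.37 (Rpl5). The paralog Rpl39l had the opposite sign, at -2.56. In each of the 21 genes above 0 the inguinal group was lower on the high-fat diet by the same fit. The lymphocyte markers had the same sign in this contrast, with 6 of 20 called and a median of 3.35, and their part in the result was not tested. With their level as a covariate 0 ribosomal protein genes passed in limma, when 1.35% of all genes passed, and 2 had an unadjusted p under 0.05.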

How the results depend on the processing

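The direction of the family's median held under all alternatives for the interaction and for the depot difference on the high-fat diet, and for the inguinal diet difference except under centring on the family, which sets it near 0 by construction (0.032; 0.0081 for the interaction and 0.10 for the depot difference on the high-fat diet). Centring left 5 inguinal, 2 interaction, 1 normal-diet depot and 14 high-fat depot calls. The shares of all genes passing were 75%, 40.6%, 3.18% and 73.3%. The lymphocyte covariate gave 1 epididymal, 0 inguinal and 0 interaction calls, when 24.5%, 0.983% and 1.35% of all genes passed. Its medians were -0.15 (inguinal), 0.35 (interaction) and 1.34 (depot, normal diet). Leaving out inguinal normal-diet libraries 0 and 2 leaves 1 library in that group. The medians were then -0.63 (inguinal), 0.73 (interaction) and 0.77 (depot, normal diet). The library set as a term gave 4 interaction calls (5.66% of all genes passed) and 1 high-fat depot call (0.682%, median 0.83). The normal-diet depot median was then -0.55. The inguinal fit on its own groups gave 3 calls, when 4.77% of all genes passed. The interaction gave 4 calls with no filter, 8 with nuclear scaling and 6 with quantile normalization, when 3.08%, 7.73% and 7.85% of all genes passed. These counts, out of the genes of the family tested, lie near the shares of all genes. The normal-diet depot contrast gave 1 call with nuclear scaling, quantile normalization or TMM factors (Rps3 each time), when 7.72%, 8.74% and 8.14% passed. With the library number as a block there were 1 epididymal, 13 interaction and 1 normal-diet depot calls (Rpl39l), when 22.8%, 7.7% and 7.25% of all genes passed. The inguinal and high-fat depot counts stayed at 74 and 58 (23.1% and 11.9% of all genes). With each library left out in turn, calls ranged from 45 to 77 (inguinal), 2 to 71 (interaction), 0 to 23 (normal-diet depot) and 28 to 48 (high-fat depot). The shares of all genes passing ran from 11% to 31.6%, 2.89% to 17.6%, 1.76% to 20.7% and 5.23% to 7.19%. The normal-diet depot median ran from -0.52 to 0.14. The cause of these shifts was not tested.

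Among single genes, the inguinal diet difference changed sign under centring for Rpl10 (0.22), Rpl11 (0.24), Rpl39 (0.0099), Rplp2 (0.20), Rps19 (0.10), Rps21 (0.42), Rps3 (0.29) and Rps9 (0.51), and under the lymphocyte covariate for Rpl21 (0.16), Rpl39 (0.30), Rplp1 (0.0065), Rps21 (0.16), Rps29 (0.22) and Rps3 (0.13). The high-fat depot difference changed sign under centring for Rpl11 (-0.059) and Rpl41 (-0.16). The mean share of the family was 3.80%, 2.67%, 1.83%, 4.02%, 0.873% and 0.588% of protein-coding FPKM for epididymal high-fat and normal, inguinal high-fat and normal, and brown high-fat and normal libraries. Of nuclear protein-coding FPKM it was 5.46%, 6.00%, 2.62%, 8.20%, 4.99% and 3.05%, and of all FPKM 0.503%, 0.436%, 0.340%, 1.11%, 0.366% and 0.108%. The shares of protein-coding FPKM, nuclear or not, leave out Rpl6l and Rps4l. Unknown depth limits what can be said of genes listed at or near 0, such as Rpl3l and Rpl39l.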
